A study of Mus musculus with 31 samples.

Results

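The contrast asked whether β-glucan acted on the transcripts of bone marrow hematopoietic stem cells (HSC) in the same way in mice recovering from 5-fluorouracil (5-FU) as in mice without it. For each gene, the β-glucan effect (β-glucan over PBS) after 5-FU was set against the β-glucan effect 28 days after injection, and the difference of these log2 fold changes was tested. The members were chosen by their labels: 16 of the 31 libraries of the series, 4 in each of 4 groups. The first group was HSC from C57BL/6 mice, 10 weeks old, given 1 mg of β-glucan into the peritoneum, then 150 mg/kg of 5-FU 7 days later, and sampled 14 days after the 5-FU. The second group received PBS in place of β-glucan and the same 5-FU. The other groups were HSC of mice given 1 mg of β-glucan alone, or PBS alone, and sampled at day 28. All mice were C57BL/6 of the same age.

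β-Glucan is a glucose polymer of fungal cell walls that myeloid cells recognise through dectin-1, and it is used to elicit trained immunity, a lasting change in innate immune responses that has been traced in part to marrow progenitors. 5-FU blocks thymidylate synthesis and kills dividing progenitors, after which quiescent stem cells divide and rebuild the blood. A difference between the effects is read here as a difference between the sets of mice, because 5-FU, the time since β-glucan and the count table all changed together and cannot be told apart. Each effect was taken within 1 table, so a shift shared by the β-glucan and PBS libraries of a table cancels. The tables' columns give neither the day nor 5-FU, and the 5-FU table was assigned by elimination. In column names, G was read as β-glucan and P as PBS. Whether replicates are separate mice is not stated, and p-values therefore reflect the spread among the libraries at hand, which may be technical.

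Totals ran between 23116542 and 39485556 counts per library (median 30945625), and 22611 to 23713 genes had a count. The first principal component (74.0% of the variance) separated the tables. On the second component (5.20%), replicate 2 of PBS mice at day 28 lay at −29.7, and the other 15 libraries lay between −9.40 and 13.4. All defining HSC markers were detected in every group, among them Kit (the stem cell factor receptor, 155 to 271 CPM, which are counts scaled to the size of the library), Hlf (22.8 to 43.3 CPM), Mecom (6.84 to 18.0 CPM) and Procr (5.27 to 10.1 CPM, all group means). Transcripts of mature blood cells were abundant as well. The neutrophil granule gene Camp averaged 11295 and 11955 CPM in β-glucan and PBS mice after 5-FU and 2819 and 3815 CPM in β-glucan and PBS mice at day 28. The 4 haemoglobin genes held 11.0, 13.8, 15.7 and 17.6% of counts in the same order of groups. The libraries are therefore called HSC after their label, and in such bulk samples fewer cells of a type and less RNA per cell cannot be told apart.

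Of 16985 genes tested, 18 were called for the difference of effects (0.106%) by edgeR's quasi-likelihood test at a Benjamini-Hochberg adjusted p under 0.05. In 9 of them (0.053%) the effect was higher after 5-FU than at day 28, and in the other 9 (0.053%) it was lower. At an unadjusted p under 0.05 there were 938 higher genes (5.52%) and 982 lower ones (5.78%, 11.3% together). In the same fit, 53 genes were called for the β-glucan effect after 5-FU (0.312%, 41 higher and 12 lower) and 69 for that at day 28 (0.406%, 40 higher and 29 lower; 21 and 8 with DESeq2's size factors). At an unadjusted p under 0.05, the effect after 5-FU was higher in 4.02% and lower in 4.1% of genes (8.11% together), and that at day 28 higher in 7.89% and lower in 8.68% (16.6% together). The effects pointed the same way in 53.5% of the 10137 genes with a mean log2 CPM of at least 2. Across these genes their Pearson correlation was 0.11 and their Spearman correlation 0.05, as a description over genes, which are not independent replicates.

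In 17 of the 18 called genes the effects had opposite signs, and Ear1 was the exception. For the effects themselves, 7 of the 18 were called after 5-FU, 6 at day 28 and 5 in neither. The 8 called genes with higher effects after 5-FU, a mean log2 CPM of at least 2 and a standard name were Il2rb, Alox15, Trac, Ear1, Itm2a, Tsc22d3, H2-Eb1 and Ifi203. The 5 with lower effects were Lipg, Fos, Prok2, Rexo1 and Lmna. By role, the higher genes included lymphocyte receptors (Il2rb, Trac), eosinophil products (Alox15, Ear1) and an MHC class II gene (H2-Eb1), and the lower ones an immediate early transcription factor (Fos). The remaining 5 called genes (Cxcl2, 3 immunoglobulin segments and Gm23849) had lower counts.

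The number of calls turned on single libraries. It was 49 without replicate 3 of β-glucan mice at day 28 and 38 without replicate 2 of PBS mice at day 28. It was 6 without any 1 of replicate 1 of β-glucan and replicate 2 of PBS mice after 5-FU and replicates 1 and 4 of β-glucan mice at day 28. Without any 1 of replicates 2 and 3 of β-glucan and 1 and 4 of PBS mice after 5-FU, replicate 2 of β-glucan mice at day 28 and replicates 3 and 4 of PBS mice at day 28, it was 7 to 11. Il2rb and Alox15 were called in each of the 16 fits that left out 1 library. DESeq2 called all 18 genes, limma voom all but Rexo1 and Ighv5-17, and edgeR with DESeq2's size factors all but Itm2a, Tsc22d3, Ifi203 and Prok2. Over all 16985 genes tested, DESeq2 called 151 and limma voom 118, which are the backgrounds for their counts of list members below. With all groups of the series in the fit, Tsc22d3, H2-Eb1, Fos, Rexo1 and Ighv1-49 were not called. The count for the effect after 5-FU was 107 without replicate 3 of PBS mice after 5-FU and 19 to 34 without any 1 of replicates 1, 2 and 3 of β-glucan and 1 and 2 of PBS mice after 5-FU. The count for the effect at day 28 was 443 without replicate 3 of β-glucan and 345 without replicate 3 of PBS mice at day 28, and 1 without replicate 4 of PBS mice at day 28. It was 3 to 27 without any 1 of the 4 β-glucan libraries and replicates 1 and 2 of PBS mice after 5-FU, replicate 4 of β-glucan and replicates 1 and 2 of PBS mice at day 28.

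**Figure D1:**
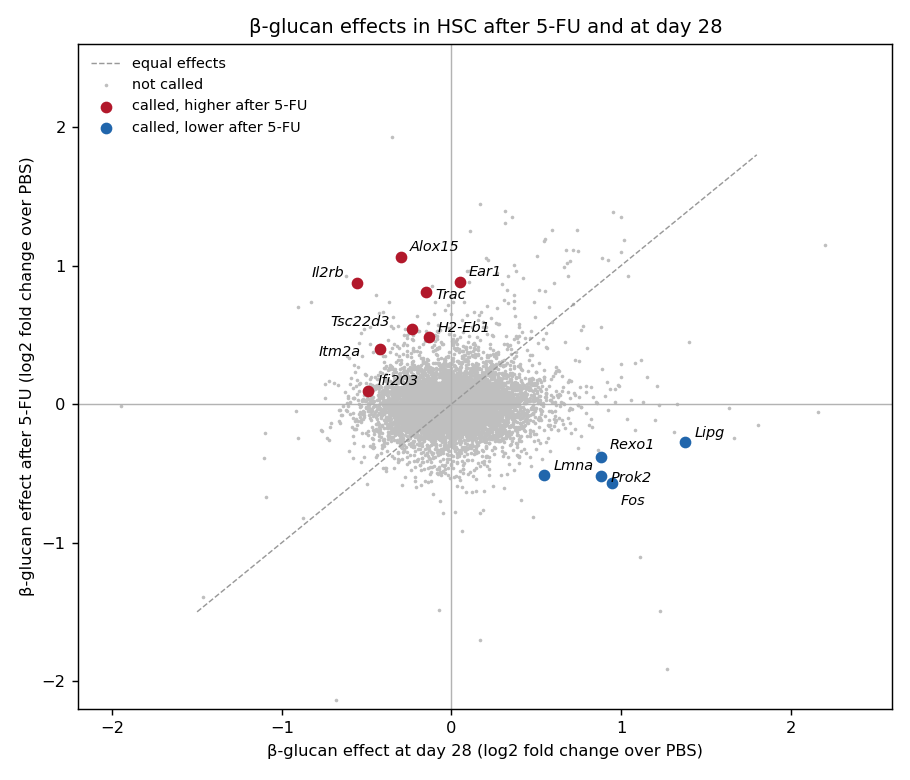
The β-glucan effect after 5-FU (vertical axis) against the β-glucan effect at day 28 (horizontal axis), both as log2 fold changes over PBS, for the 10137 genes with a mean log2 CPM of at least 2 (3 lie beyond the axes). Red and blue points are the 13 called genes with a higher or lower effect after 5-FU, and the dashed line marks equal effects. All called genes but Ear1 lie in the upper left or lower right quadrant, which choosing genes by the difference favours.

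Il2rb, the β chain shared by the receptors for IL-2 and IL-15 on T and NK cells (chr15:78480553-78495066, mm10), had the smallest p among genes of that level. Its level was 14.5, 15.5, 12.8 and 9.91 CPM in β-glucan mice after 5-FU, against 7.20, 8.07, 7.00 and 6.36 CPM in PBS mice after 5-FU. The day 28 levels were 18.7, 17.1, 22.0 and 18.7 CPM in β-glucan mice, against 28.0, 31.5, 28.5 and 24.7 CPM in PBS mice. All β-glucan libraries stood above all PBS libraries after 5-FU and below all of them at day 28. Over all genes, β-glucan libraries were all above PBS in 2.05% and all below in 2.61% after 5-FU (4.66% together), and above in 3.65% and below in 4.99% at day 28 (8.64% together). The Il2rb effects were 0.88 ± 0.13 after 5-FU (log2 fold change ± SE, adjusted p = 0.00553) and −0.56 ± 0.12 at day 28 (adjusted p = 0.0548), and their difference was 1.44 ± 0.18 (adjusted p = 0.00220).

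Trac, the constant segment of the T cell receptor α chain (chr14:54220521-54224206, mm10), had 10.5, 9.12, 8.62 and 7.70 CPM in β-glucan mice after 5-FU and 4.80, 5.12, 5.25 and 5.31 CPM in PBS mice after 5-FU. The day 28 libraries had 11.7, 12.9, 11.1 and 10.6 CPM in β-glucan mice and 11.9, 13.3, 13.8 and 12.3 CPM in PBS mice. The groups did not overlap after 5-FU (0.81 ± 0.11, adjusted p = 0.00341) and overlapped at day 28 (−0.15 ± 0.11, adjusted p = 0.521). The difference was 0.96 ± 0.16 (adjusted p = 0.0182). Its adjusted p was above the threshold, at 0.053 to 0.067, without any 1 of replicate 1 of β-glucan and replicate 2 of PBS mice after 5-FU and replicates 1 and 4 of β-glucan mice at day 28.

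The other T and NK cell markers stood mostly on the same side. Of 20 listed, all were tested and 2 were called, both higher (Il2rb and Trac, background 0.053%). At an unadjusted p under 0.05, 14 had a higher effect after 5-FU (background 5.52%) and 1, Nkg7, had a lower one (background 5.78%). DESeq2 called 8 (151 of all 16985 genes) and limma voom 5 (118 of all 16985 genes). The median difference was 0.71 over the list and 0.00 over all genes. The list's median effect was 0.38 after 5-FU and −0.31 at day 28. Among the members not called, the T cell receptor subunit Cd3d had a difference of 0.65 ± 0.16 (adjusted p = 0.154), the proximal kinase Lck 0.71 ± 0.17 (adjusted p = 0.154) and the chemokine Ccl5 0.71 ± 0.17 (adjusted p = 0.153). Cd3d had 8.36 to 9.77 CPM in β-glucan and 6.40 to 8.07 CPM in PBS mice after 5-FU, with no overlap, and 5.48 to 6.74 CPM in β-glucan and 6.81 to 7.76 CPM in PBS mice at day 28, again with no overlap and in the other direction.

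As a sum, the list without Nkg7 and Gzmb, which are also on the primary granule and the basophil lists, made up 0.0111 to 0.0133% of counts in β-glucan and 0.00867 to 0.00982% in PBS mice after 5-FU. It made up 0.0185 to 0.0194% in β-glucan and 0.0232 to 0.0237% in PBS mice at day 28. These groups did not overlap in either table. With both genes included, the sums overlapped in both tables; Nkg7 alone had 468 to 549 CPM in β-glucan and 434 to 694 CPM in PBS mice after 5-FU. None of the T and NK defining markers looked at (Cd3d, Cd3e, Trac, Cd8a and Ncr1) was at 0, and the part of lymphocyte RNA in the values of Il2rb and Trac was not tested. Mature B cell markers had a median difference of 0.41 over 14 genes, of which 4 had an unadjusted p under 0.05, all higher (background 5.52%). That count was 7 without replicate 1 of PBS mice after 5-FU, and 2 without any 1 of replicate 1 of β-glucan and replicate 4 of PBS mice after 5-FU, replicate 1 of β-glucan and replicate 2 of PBS mice at day 28. No B cell marker was called by edgeR, DESeq2 or limma voom.

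Eosinophil transcripts also had called members. Alox15, the 12/15-lipoxygenase of eosinophils and some macrophages (chr11:70344152-70352031, mm10), had 32.8, 23.2, 24.3 and 24.9 CPM in β-glucan and 13.7, 8.46, 14.2 and 14.1 CPM in PBS mice after 5-FU. Its day 28 levels were 116, 133, 119 and 124 CPM in β-glucan and 136, 183, 134 and 153 CPM in PBS mice. β-Glucan libraries were all higher after 5-FU and all lower at day 28, with effects of 1.06 ± 0.15 (adjusted p = 0.00341) and −0.30 ± 0.14 (adjusted p = 0.276). The difference was 1.36 ± 0.20 (adjusted p = 0.0117).

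Ear1, an eosinophil-associated ribonuclease (chr14:43818765-43875517, mm10), averaged 170.0 ± 21.8 and 92.1 ± 11.3 CPM in β-glucan and PBS mice after 5-FU, and 233 ± 22.4 and 225 ± 17.7 CPM in β-glucan and PBS mice at day 28 (mean ± SD, n = 4 each). The groups were apart after 5-FU (0.89 ± 0.10, adjusted p = 0.000667) and overlapped at day 28 (0.05 ± 0.10, adjusted p = 0.853). The difference was 0.83 ± 0.14 (adjusted p = 0.0294), and it was called in 7 of the 16 fits without 1 library. Of the 50-base sequences in Ear1 transcripts, 57.4% also occur in other genes, so its reads and those of these genes may not be told apart. Ear6, of the same family and with 0.954% shared, had a difference of 0.86 ± 0.16, just outside the threshold (adjusted p = 0.050).

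Of the 18 mast cell, basophil and eosinophil markers, all tested, 2 were called for the difference, both higher (background 0.053%). At an unadjusted p under 0.05, 8 had a higher effect (background 5.52%) and none a lower one. The list's median difference was 0.40. Of the members, 7 were called for the effect after 5-FU, all higher (background 0.241%), and none at day 28. At day 28, 4 were higher (background 7.89%) and 1 was lower (background 8.68%) at an unadjusted p under 0.05. After 5-FU, 14 of the 18 were higher at that p (background 4.02%) and none was lower (background 4.1%). These 14 include mast cell or basophil genes, so the higher effect was not limited to eosinophil genes. The list's median effect was 0.57 after 5-FU and 0.18 at day 28. The 7 called after 5-FU were all eosinophil genes: Alox15, Ear1, Ear2, Ear6, Prg2 and Prg3 (major basic proteins) and Epx (eosinophil peroxidase). Siglecf, a surface lectin of eosinophils on the same list, had 4.16 to 9.90 CPM in β-glucan and 7.44 to 11.6 CPM in PBS mice after 5-FU, an effect of −0.37 ± 0.22 (adjusted p = 0.741). Its day 28 range was 5.92 to 8.97 CPM in β-glucan and 5.78 to 7.88 CPM in PBS mice, and its difference of −0.58 ± 0.31 was the lowest of the list (adjusted p = 0.50). The groups overlapped in both tables. Epx had 615, 507, 514 and 380.2 CPM in β-glucan and 271, 234, 305 and 249.9 CPM in PBS mice after 5-FU, an effect of 0.93 ± 0.15 (adjusted p = 0.00804). At day 28 its effect was 0.33 ± 0.15 (adjusted p = 0.257), and its difference of 0.59 ± 0.21 was not called (adjusted p = 0.300). The mast cell and basophil genes Mcpt8 (0.00), Cpa3 (0.16), Fcer1a (0.15) and Prss34 (0.18) had smaller differences, with unadjusted p of 0.39 or more. The list's summed share of counts was 0.445 to 0.605% in β-glucan and 0.265 to 0.347% in PBS mice after 5-FU, and 0.620 to 0.764% in β-glucan and 0.528 to 0.642% in PBS mice at day 28. The groups were apart in the 5-FU table and overlapped at day 28, and the number of eosinophils in the sorted samples was not tested.

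**Figure D2:**
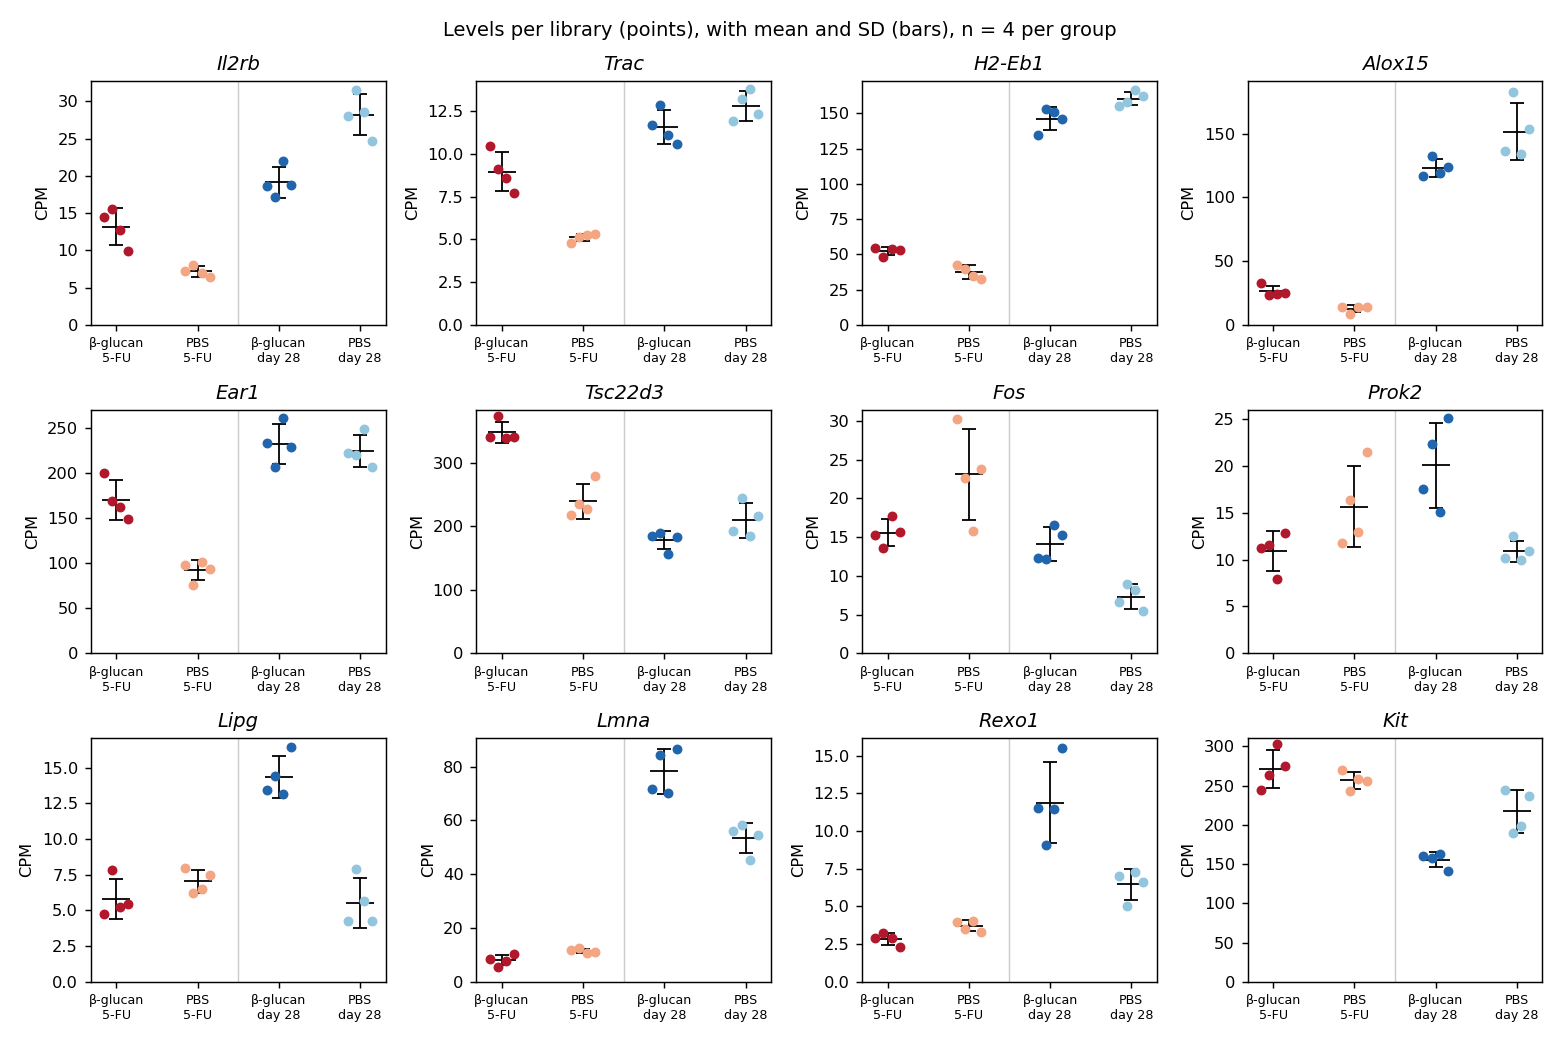
CPM of 12 named genes in each library (points) with the mean and SD of each group (bars, n = 4), in the order β-glucan after 5-FU, PBS after 5-FU, β-glucan at day 28 and PBS at day 28; the grey line parts the count tables, whose levels were not compared. Il2rb in β-glucan libraries lies above PBS left of the line and below PBS right of it, and Lmna and Rexo1 show the opposite.

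H2-Eb1 is a gene for an MHC class II β chain (chr17:34305877-34316199, mm10). As a class, MHC class II molecules present peptides to CD4 T cells. Class II promoters are known to carry CCAAT boxes bound by the factor NF-Y. The 120 bases before the starts of H2-Eb1 and H2-Aa, the class II genes of the smallest p, are shown for this reason, with CCAAT in capitals (as ATTGG where it lies on the other strand). Sequences are from RefSeq, build GRCm38.p6, 5′ to 3′ on the strand of the gene.
H2-Eb1, chr17:34305747-34305866, plus strand: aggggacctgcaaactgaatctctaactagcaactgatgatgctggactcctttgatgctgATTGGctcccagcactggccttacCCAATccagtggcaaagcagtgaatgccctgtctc
H2-Aa, chr17:34287824-34287943, minus strand: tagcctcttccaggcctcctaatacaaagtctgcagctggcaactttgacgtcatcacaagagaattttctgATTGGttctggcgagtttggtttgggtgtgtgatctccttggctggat
CCAAT began 35 and, on the other strand, 59 bases before the start of H2-Eb1, and 48 bases before that of H2-Aa on the other strand. Over windows of 300 bases (250 before and 50 after the start), 8 of 10 windows of the 9 matched class II genes held CCAAT on either strand, against 37.4% of 32851 windows of all genes. CCAAT was also in 19 of 21 windows (90.5%) of the endoplasmic reticulum chaperone and unfolded protein response list described below. It was in 10 of 21 windows of immediate early genes (47.6%) and 4 of 17 of T and NK cell markers (23.5%). A match describes the sequence and is not a measured binding site.

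H2-Eb1 had 54.3, 48.4, 53.4 and 52.8 CPM in β-glucan and 42.7, 39.7, 34.7 and 32.3 CPM in PBS mice after 5-FU, and 135, 153, 151 and 146 CPM in β-glucan and 155, 158, 166 and 162 CPM in PBS mice at day 28. β-Glucan libraries were all higher after 5-FU (0.48 ± 0.08, adjusted p = 0.00976) and all lower at day 28 (−0.13 ± 0.08, adjusted p = 0.406). The difference was 0.62 ± 0.11 (adjusted p = 0.0389) and was called in 3 of the 16 fits without 1 library. H2-Aa, a gene for a class II α chain, had 153, 129, 124 and 125 CPM in β-glucan and 112, 101, 106 and 102 CPM in PBS mice after 5-FU. Its day 28 levels were 265, 283, 272 and 270.0 CPM in β-glucan and 294, 328, 309 and 292 CPM in PBS mice. Its groups were apart in both tables in the same pattern, and its difference of 0.50 ± 0.10 did not pass (adjusted p = 0.0684).

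All 12 class II presentation genes were tested, with a median difference of 0.27, and 1 was called (background 0.053% higher). At an unadjusted p under 0.05, 6 had a higher effect after 5-FU (background 5.52%) and none a lower one (background 5.78%). Besides H2-Eb1 and H2-Aa, these were H2-Ob (0.44 ± 0.12), an antagonist of peptide loading, the protease Ctss (0.40 ± 0.12), the master regulator Ciita (0.73 ± 0.31) and H2-DMb2 (0.27), a peptide loading chain. DESeq2 called 2 of the list and limma voom 2. The list's share of counts was 0.150 to 0.174% in β-glucan and 0.114 to 0.148% in PBS mice after 5-FU, without overlap. Taken without haemoglobin counts, the same shares overlapped, at 0.165 to 0.197% in β-glucan and 0.130 to 0.176% in PBS mice after 5-FU. The day 28 shares of all counts were 0.294 to 0.352% and 0.307 to 0.318% in β-glucan and PBS mice, with overlap. Dendritic cell markers, whose cells express these genes, had a median difference of 0.37 over 13 genes. Of these markers, 5 were higher (background 5.52%) and 1 was lower (background 5.78%) at an unadjusted p under 0.05. None of them was called by edgeR, and DESeq2 and limma voom called 1 each. The higher count was 3 without any 1 of replicate 4 of PBS mice after 5-FU, replicate 1 of β-glucan and replicate 2 of PBS mice at day 28. Their part in the class II values was not tested.

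Interferon gamma induces class II genes through Ciita. Of 29 tested interferon gamma response genes of 30 listed, none was called by edgeR, 1 by DESeq2 and 2 by limma voom. At an unadjusted p under 0.05, 13 had a higher effect after 5-FU (background 5.52%) and none a lower one (background 5.78%). Without replicate 2 of PBS mice after 5-FU, 7 were higher. The median difference was 0.41, made up of a median effect of 0.06 after 5-FU and −0.31 at day 28. Gbp2, an interferon-induced GTPase, had 35.0 to 41.1 CPM in β-glucan and 26.0 to 45.6 CPM in PBS mice after 5-FU, where the groups overlapped. The day 28 range was 13.5 to 15.8 CPM in β-glucan and 20.5 to 24.3 CPM in PBS mice, without overlap, and the difference of effects was 0.78 ± 0.19 (adjusted p = 0.154). Irf1, an interferon-induced transcription factor, had a difference of 0.47 ± 0.14 (adjusted p = 0.218). The 33 type I interferon genes had a median difference of 0.16, with none called by edgeR, DESeq2 or limma voom. At an unadjusted p under 0.05, 3 were higher (background 5.52%) and 1 lower (background 5.78%). The higher count was 8 and 9 without replicates 3 and 4 of PBS mice after 5-FU and 5 without replicate 3 of β-glucan mice at day 28, and the median was 0.08 to 0.25 without single libraries. The median effects were −0.13 after 5-FU, with 4 lower at an unadjusted p under 0.05 (background 4.1%), and −0.28 at day 28, with 14 lower (background 8.68%). At day 28, 31 of the 33 effects were negative and 16 genes had all β-glucan libraries below all PBS libraries (background 4.99%). Ifi44, an interferon-induced gene, was called there (−0.91 ± 0.19, adjusted p = 0.0497). The gene with a lower difference was Isg15, which was called after 5-FU (−0.59 ± 0.09, adjusted p = 0.00804) and not at day 28 (−0.18).

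Ifi203, an interferon-inducible gene of the HIN-200 family, was called for the difference at 0.59 ± 0.11 (adjusted p = 0.0496). It had 34.1 to 37.5 CPM in β-glucan and 32.0 to 35.2 CPM in PBS mice after 5-FU, which overlapped, against 18.1 to 20.5 CPM in β-glucan and 23.7 to 28.5 CPM in PBS mice at day 28, which did not. The effect at day 28 was −0.49 ± 0.08 (adjusted p = 0.0259), and 12.4% of its 50-base sequences also occur in other genes. Itm2a, which encodes a membrane protein found on T cells among others (chrX:107397099-107403376, mm10), had 16.5 to 19.8 and 12.4 to 15.2 CPM in β-glucan and PBS mice after 5-FU and 8.61 to 10.1 and 11.0 to 15.3 CPM in β-glucan and PBS mice at day 28. Its groups were apart in both tables in opposite directions, with a difference of 0.82 ± 0.16 (adjusted p = 0.0499). Ifi203 and Itm2a were each called in 2 of the 16 fits without 1 library.

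Tsc22d3 encodes GILZ, a leucine zipper protein induced by glucocorticoids (chrX:140539528-140600659, mm10). It had 340.0, 373, 339 and 339.6 CPM in β-glucan and 217, 234, 227 and 279 CPM in PBS mice after 5-FU, without overlap. The day 28 libraries had 185, 189, 156 and 183 CPM in β-glucan and 192, 245, 184 and 217 CPM in PBS mice, with overlap. The effects were 0.54 ± 0.09 (adjusted p = 0.0157) and −0.23 ± 0.09 (adjusted p = 0.224), and the difference was 0.77 ± 0.13 (adjusted p = 0.0294), called in 6 of the 16 fits without 1 library. Among 14 glucocorticoid-induced genes, Tsc22d3 was the 1 called (background 0.053% higher). At an unadjusted p under 0.05, 4 were higher (background 5.52%) and 1 lower (background 5.78%), and the median difference was 0.12. That median was 0.01 without replicate 3 of PBS mice at day 28 and 0.35 without replicate 4 of PBS mice after 5-FU. The 4 were Tsc22d3, Klf9 (0.78 ± 0.18), Pdk4 (1.67 ± 0.54) and the clock gene Per1 (0.87 ± 0.38). Fkbp5, a classical glucocorticoid target, was at −0.15, and the metallothionein gene Mt1 was the lower one, at −0.36.

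Fos and Jun encode the partners of the transcription factor AP-1 and belong to the immediate early genes, which cells induce within minutes of a stimulus without new protein synthesis. The Fos promoter is known to hold a cyclic AMP response element. The 120 bases before the starts of Fos and Jun are shown, with TGACGT in capitals in Fos to place that element. TGACGT was also searched in the Jun window and not found, and CCAAT is in capitals there.
Fos, chr12:85473770-85473889, plus strand: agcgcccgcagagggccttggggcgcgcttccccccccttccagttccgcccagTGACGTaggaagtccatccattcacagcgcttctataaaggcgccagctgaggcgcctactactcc
Jun, chr4:95052223-95052342, minus strand: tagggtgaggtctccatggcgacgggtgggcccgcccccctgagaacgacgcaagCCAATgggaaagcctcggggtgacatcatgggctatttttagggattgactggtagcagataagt
TGACGT began 66 bases before the Fos start and CCAAT 65 bases before the Jun start. TGACGT occurred in 7 of 21 windows of the 17 matched immediate early genes (33.3%) and in 7.51% of all windows, on either strand. The AP-1 motif TGANTCA was in 0 of the 21 windows and 7.81% of all, which says only that these letters are not in the windows.

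Fos (chr12:85473890-85477273, mm10) had 15.3, 13.6, 17.8 and 15.7 CPM in β-glucan and 30.3, 22.6, 15.9 and 23.8 CPM in PBS mice after 5-FU. Its day 28 levels were 12.3, 12.2, 16.6 and 15.3 CPM in β-glucan and 6.65, 8.94, 8.23 and 5.40 CPM in PBS mice. After 5-FU 1 PBS library lay within the β-glucan range, and at day 28 all β-glucan libraries were higher. The effects were −0.57 ± 0.18 (adjusted p = 0.266) and 0.95 ± 0.18 (adjusted p = 0.0398), and the difference was −1.52 ± 0.25 (adjusted p = 0.0213). Without any 1 of replicates 1 and 2 of β-glucan and replicate 2 of PBS mice after 5-FU and replicate 4 of β-glucan mice at day 28, the adjusted p was 0.053 to 0.066.

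Jun had 2.16, 1.31, 2.80 and 2.91 CPM in β-glucan and 5.28, 3.80, 4.17 and 3.48 CPM in PBS mice after 5-FU, and 1.90, 1.66, 1.77 and 2.31 CPM in β-glucan and 0.980, 1.20, 1.28 and 1.22 CPM in PBS mice at day 28. The groups were apart in both tables in opposite directions, and the difference of −1.57 ± 0.32 did not pass (adjusted p = 0.0684). An antisense gene covers 7.28% of the exon bases of Jun, and the library kit does not mark strand. Of 22 immediate early genes listed, 21 matched a gene and 19 were tested: 1 was called (Fos, background 0.053% lower). At an unadjusted p under 0.05 there were 6, all lower (background 5.78%). The median difference was −0.32. The 6 were Fos, Jun, Ier2 (−1.52 ± 0.35), Junb (−1.29 ± 0.44), Klf4 (−0.57 ± 0.18) and Klf2 (−0.60). Others of the class did not stand apart, with Egr1 at −0.47 ± 0.33 and Zfp36 at −0.25. Atf3 was at 0.94 (unadjusted p = 0.062). DESeq2 called 3 of the list and limma voom 2. The list's share of counts was 0.0668 to 0.0712% in β-glucan and 0.0631 to 0.0805% in PBS mice after 5-FU. At day 28 it was 0.0775 to 0.088% in β-glucan and 0.0803 to 0.0876% in PBS mice. The shares overlapped in both tables. Ier2 had 5.59 to 8.51 CPM in β-glucan and 7.54 to 8.60 CPM in PBS mice after 5-FU. At day 28 it had 11.9, 13.1, 19.3 and 32.4 CPM in β-glucan mice, of which replicate 4 stood highest, and 5.89 to 9.57 CPM in PBS mice.

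**Figure D3:**
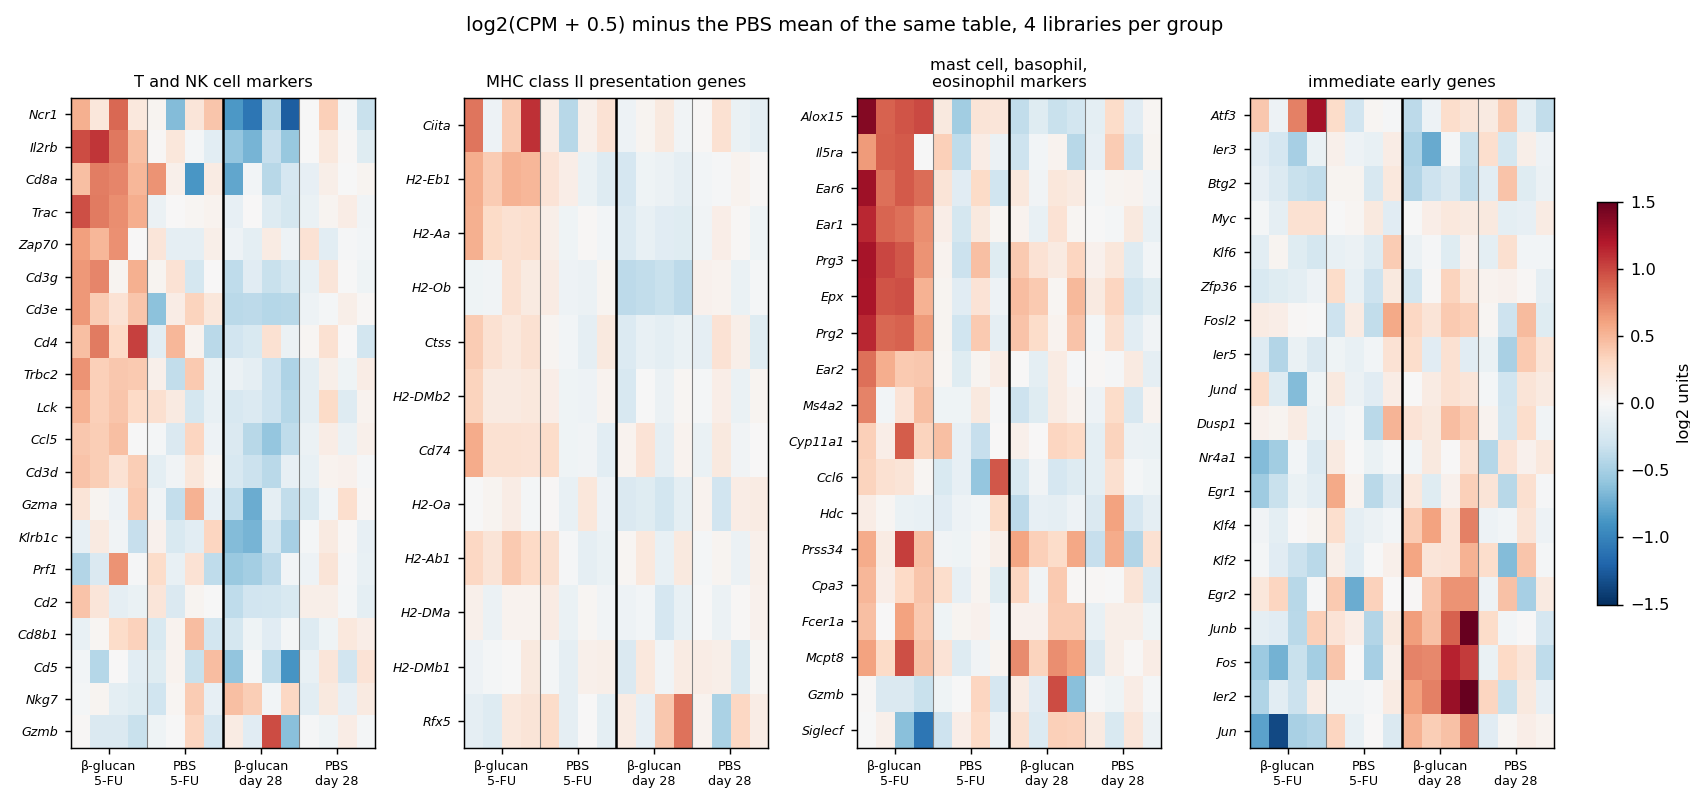
log2(CPM + 0.5) of each library minus the mean of the PBS libraries of the same table, for the tested members of 4 lists, with genes ordered by their difference of effects from highest to lowest; red is above and blue below PBS. Most T and NK cell markers are red in β-glucan libraries after 5-FU and blue in those at day 28, the eosinophil genes Alox15, Ear1, Ear2, Ear6, Prg2, Prg3 and Epx are red in β-glucan libraries after 5-FU, Siglecf is blue in 2 of them, and Fos, Jun, Junb and Ier2 are red in β-glucan libraries at day 28.

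The 4 other called genes of that level with lower effects after 5-FU belong to no common list. Lipg, endothelial lipase, had the largest difference of the 13, at −1.66 ± 0.27 (adjusted p = 0.0182). It had 4.72, 7.85, 5.21 and 5.45 CPM in β-glucan and 7.96, 6.22, 6.52 and 7.46 CPM in PBS mice after 5-FU, which overlapped. At day 28 it had 13.4, 14.4, 13.2 and 16.4 CPM in β-glucan and 4.22, 7.91, 5.66 and 4.27 CPM in PBS mice, where the lowest β-glucan library stood above the highest PBS library (1.38 ± 0.19, adjusted p = 0.00656). The adjusted p of the difference was 0.056 to 0.063 without any 1 of replicates 1 and 3 of β-glucan mice after 5-FU and replicate 4 of β-glucan mice at day 28.

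Lmna, which encodes lamin A and C of the nuclear envelope (chr3:88480147-88509956, mm10), averaged 8.04 ± 1.91 and 11.5 ± 0.820 CPM in β-glucan and PBS mice after 5-FU and 78.2 ± 8.38 and 53.5 ± 5.66 CPM in β-glucan and PBS mice at day 28. Its groups were apart in both tables, lower with β-glucan after 5-FU and higher at day 28, and the difference was −1.06 ± 0.19 (adjusted p = 0.0364). Rexo1, an RNA exonuclease (chr10:80540922-80561560, mm10), followed the same pattern with 2.28 to 3.23 and 3.29 to 4.05 CPM after 5-FU in β-glucan and PBS mice and 9.04 to 15.5 and 4.99 to 7.27 CPM at day 28. Its difference was −1.26 ± 0.24 (adjusted p = 0.0499). Prok2, the secreted peptide prokineticin 2 (chr6:99711299-99726392, mm10), had 7.93 to 12.9 and 11.8 to 21.5 CPM in β-glucan and PBS mice after 5-FU, which overlapped, and 15.1 to 25.2 and 9.95 to 12.5 CPM in β-glucan and PBS mice at day 28, which did not. Its difference was −1.40 ± 0.27 (adjusted p = 0.0499). Lmna, Prok2 and Rexo1 were called in 6, 4 and 3 of the 16 fits without 1 library. The neutrophil chemokine Cxcl2, at 0.300 to 2.79 CPM in all libraries, had a difference of −2.73 ± 0.51 (adjusted p = 0.0484).

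Among the called immunoglobulin segments, some groups held libraries that differed many-fold from each other. Igkv4-91 (difference −7.79 ± 1.17, adjusted p = 0.0117) had 0.385 to 1.85 CPM in β-glucan mice after 5-FU, against 0.961, 18.8, 0.875 and 31.8 CPM in PBS mice after 5-FU. At day 28 it had 17.3 to 32.9 CPM in β-glucan and 0.846 to 2.54 CPM in PBS mice. Ighv5-17 (6.74 ± 1.22, adjusted p = 0.0389) had 4.41, 4.27, 14.1 and 0.258 CPM in β-glucan mice after 5-FU and 0.397, 8.64, 3.53 and 13.2 CPM in PBS mice at day 28, against at most 0.869 CPM in the other 2 groups. Ighv1-49 (−5.89 ± 0.67, adjusted p = 0.000861) had 0.147 to 0.302 CPM in β-glucan mice after 5-FU, against 2.64 to 5.55 CPM in PBS mice after 5-FU, and at most 0.842 CPM in the libraries of day 28. Such variable segments are rearranged in B cell clones. Gm23849 (−2.19 ± 0.35, adjusted p = 0.0182) shares all of its 50-base sequences with other genes, so its counts are uncertain. The 13 plasma cell markers had a median difference of −0.04, and of −0.27 to 0.17 without single libraries.

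The HSC genes themselves were not called. Of 25 LT-HSC markers, none was called by edgeR, 1 by DESeq2 and 2 by limma voom. At an unadjusted p under 0.05, 7 had a higher effect after 5-FU (background 5.52%) and none a lower one (background 5.78%). The median difference was 0.36, from a median effect of −0.02 after 5-FU and −0.33 at day 28. Kit was the marker of the smallest p, at 0.56 ± 0.12 (adjusted p = 0.117). It had 244, 263, 303 and 275 CPM in β-glucan and 270.1, 243, 258 and 255 CPM in PBS mice after 5-FU, which overlapped. At day 28 it had 160.4, 157, 162 and 141 CPM in β-glucan and 244, 189.5, 199 and 237 CPM in PBS mice, which did not overlap (−0.48 ± 0.09, adjusted p = 0.0370). Without replicate 2 of PBS mice at day 28, the library that stood apart, 13 of the 25 markers had an unadjusted p under 0.05 and 1 was called, with a median of 0.50. Without replicate 1 of the same group 2 had such a p and the median was 0.19. The count was 3 or 4 without any 1 of replicate 3 of β-glucan and replicates 2 and 4 of PBS mice after 5-FU, replicates 1, 3 and 4 of β-glucan and replicate 4 of PBS mice at day 28. Calcrl, the calcitonin receptor-like receptor of the vascular and stem cell compartment, followed Kit, with a difference of 0.50 ± 0.11 (adjusted p = 0.117). Slamf1 (−0.14 ± 0.25), Procr (0.33 ± 0.35) and Flt3 (−0.00 ± 0.34), which mark stem or multipotent cells, had differences within 1 SE of 0. The share of counts in the 25 markers was 0.119 to 0.149% in β-glucan and 0.117 to 0.148% in PBS mice after 5-FU and 0.0903 to 0.0992% and 0.0918 to 0.142% at day 28.

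Erythroid genes mostly had negative differences, in 17 of 18 red cell factors and membrane skeleton genes. Of these 18, none was called by edgeR, 3 were by DESeq2 and 1 by limma voom. At an unadjusted p under 0.05, 6 were lower (background 5.78%), and the median difference was −0.30 (−0.44 to −0.20 without single libraries). The effect after 5-FU was negative in all 18, with 11 at an unadjusted p under 0.05 (background 4.1%) and a median of −0.32. At day 28 the median effect was −0.03, with 3 higher (background 7.89%) and 0 lower by edgeR at that p and 11 of 18 negative. Klf1, the erythroid master regulator, had 3.54 to 5.26 and 3.84 to 7.04 CPM in β-glucan and PBS mice after 5-FU, which overlapped, and 82.5 to 121 and 44.4 to 70.0 CPM in β-glucan and PBS mice at day 28, which did not. Its difference was −1.06 ± 0.25 (adjusted p = 0.139), and its effect at day 28 was called (0.74 ± 0.16, adjusted p = 0.0497). Without replicate 2 of PBS mice at day 28, 14 of the 18 genes had an unadjusted p under 0.05, and this library held the highest share of counts in the list, 1.92%, against 1.34 to 1.44% in the other 3. The 12 haemoglobin and heme synthesis genes all had negative differences (median −0.20, and −0.27 to −0.12 without single libraries). Of these, 3 had an unadjusted p under 0.05 (background 5.78% lower), and 6 did without replicate 2 of PBS mice at day 28. The median effect of the 12 was −0.36 after 5-FU, with 11 lower at an unadjusted p under 0.05 (background 4.1%). At day 28 it was −0.19, with 4 lower (background 8.68%) and 2 higher (background 7.89%). Haemoglobin counts were lower with β-glucan in both tables, at 9.07 to 12.1 and 12.2 to 15.9% of counts in β-glucan and PBS mice after 5-FU and 14.8 to 16.7 and 17.1 to 18.2% at day 28.

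Granulocyte genes were taken by stage. The 9 tested primary granule genes of 10 listed, which promyelocytes express, had a median difference of −0.38, with 6 lower at an unadjusted p under 0.05 (background 5.78%). Without replicate 3 of PBS mice after 5-FU, 3 were lower and the median was −0.24. The median β-glucan effect of these 9 genes was −0.05 after 5-FU, with none at an unadjusted p under 0.05. At day 28 it was 0.34, with 7 higher (background 7.89%) and none lower at that p. Prtn3 (proteinase 3, −0.69 ± 0.18, adjusted p = 0.180) had 734 to 826 and 676 to 1141 CPM in β-glucan and PBS mice after 5-FU, which overlapped, and 739.8 to 934 and 554 to 613 CPM in β-glucan and PBS mice at day 28, which did not. The 17 late neutrophil granule genes had a median difference of 0.19, with 2 higher at an unadjusted p under 0.05 (background 5.52%). Without replicate 4 of PBS mice after 5-FU, 11 were higher and the median was 0.39. The count was 4 without replicate 3 of β-glucan or replicate 4 of PBS mice at day 28, and the median was 0.10 without replicate 2 of PBS mice at day 28 and 0.11 without replicate 1 of PBS mice after 5-FU. The median effect of these 17 genes was −0.07 after 5-FU, with none at an unadjusted p under 0.05. At day 28 it was −0.29, with 9 lower (background 8.68%) and none higher at an unadjusted p under 0.05. Of 24 tested myeloid growth factor receptor and signalling genes, 7 were lower (background 5.78%) and 1 higher (background 5.52%) at that p (median −0.22). Without replicate 4 of β-glucan mice at day 28, 4 were lower. The median effect of these 24 genes was 0.04 after 5-FU and 0.22 at day 28. At day 28, 12 were higher (background 7.89%) and 1 was lower (background 8.68%) at an unadjusted p under 0.05. Gfi1, a repressor needed for granulocyte development, had a difference of −1.03 ± 0.27 (adjusted p = 0.181) and Cebpe, a factor of late granulocytes, −0.55 ± 0.14 (adjusted p = 0.181). Both were called at day 28, at 1.06 ± 0.19 and 0.48 ± 0.10. No member of these lists was called for the difference by edgeR; DESeq2 called 1 primary granule gene and 3 of the myeloid list, and limma voom 1 of each.

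Of 24 endoplasmic reticulum chaperones and unfolded protein response genes, none was called by edgeR for the difference, 1 was by DESeq2 and none by limma voom. The median was −0.16, and 4 had an unadjusted p under 0.05, all lower (background 5.78%). That count was 7 without replicate 4 of PBS mice after 5-FU, and 2 without any 1 of replicate 3 of β-glucan and replicates 2 and 3 of PBS mice after 5-FU, replicate 4 of β-glucan and replicate 1 of PBS mice at day 28. The list's median β-glucan effect was 0.09 after 5-FU, with 18 of 24 positive and none at an unadjusted p under 0.05. At day 28 the median effect was 0.18, with 20 of 24 positive and 2 called (background 0.236% higher). At an unadjusted p under 0.05, 11 were higher there (background 7.89%) and none lower. Sdf2l1, an endoplasmic reticulum chaperone cofactor, had 14.7 to 19.2 and 12.4 to 15.8 CPM in β-glucan and PBS mice after 5-FU, which overlapped. At day 28 it had 108, 128, 118 and 183 CPM in β-glucan and 68.9, 66.5, 59.7 and 58.8 CPM in PBS mice, which did not (1.08 ± 0.13, adjusted p = 0.00255). Its difference was −0.79 ± 0.19 (adjusted p = 0.154). CCACG, the part of the stress response element that ATF6 binds, occurred in 17 of the 21 promoter windows of this list (81%) and in 32.8% of all windows.

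**Figure D4:**
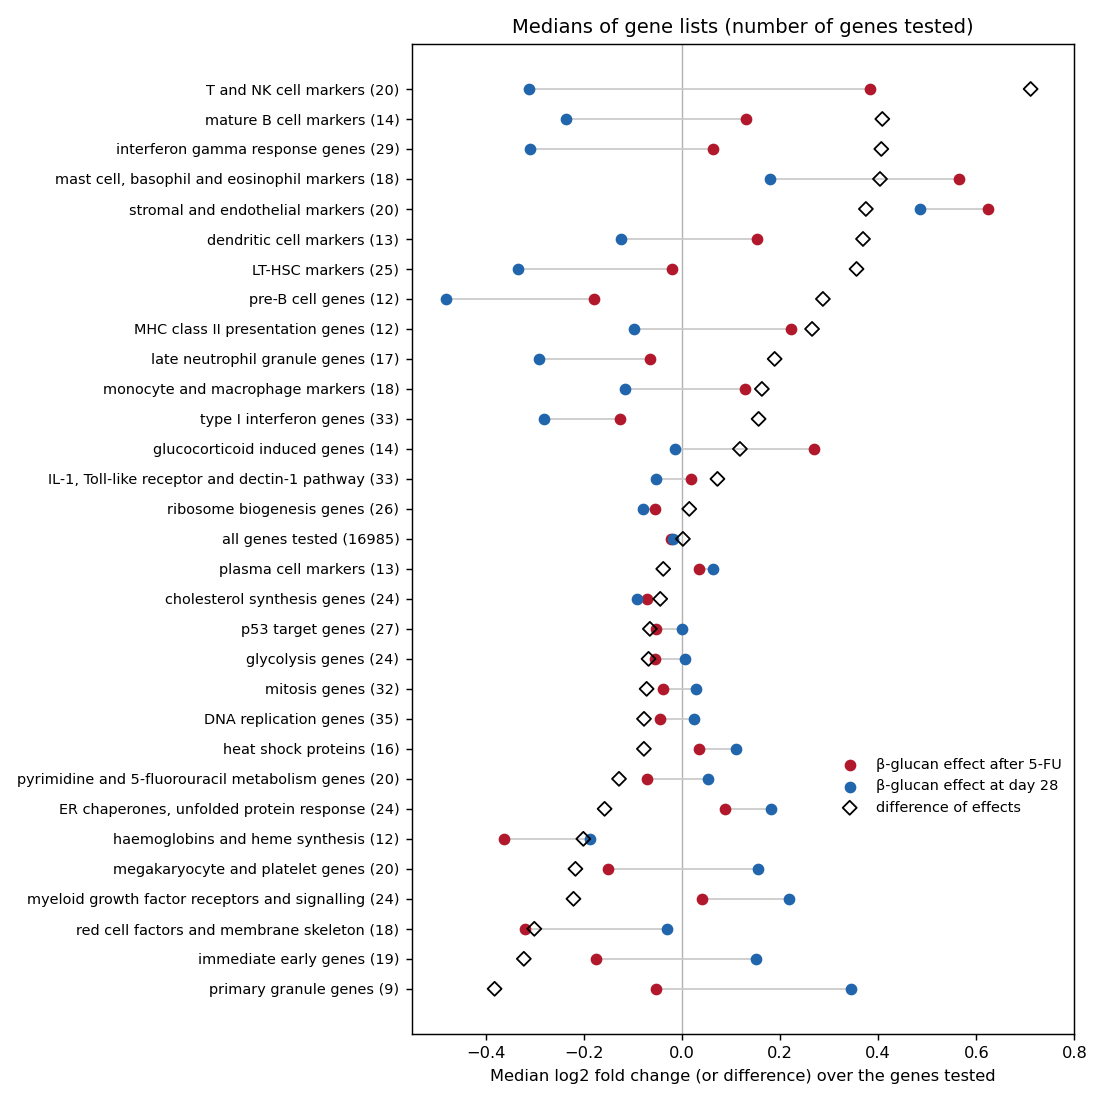
Median over the tested genes of each of 30 lists and of all 16985 genes: the β-glucan effect after 5-FU (red), the β-glucan effect at day 28 (blue) and the difference of effects (diamonds), on the log2 scale, with the number of genes in brackets. T and NK cell markers have the highest median difference, 0.71, and primary granule genes the lowest, −0.38.

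Genes of marrow stroma were called after 5-FU but not for the difference. Of 20 stromal and endothelial markers, 5 were called for the effect after 5-FU (Cxcl12, Igfbp5, Lepr, Kitl and Lpl, all higher, background 0.241%). None was called at day 28 by edgeR, where 6 were higher (background 7.89%) and 2 lower (background 8.68%) at an unadjusted p under 0.05. None was called for the difference by edgeR or limma voom, and 1 was by DESeq2. At an unadjusted p under 0.05, 5 had a higher difference (background 5.52%), with a median of 0.37 over the list. Without replicate 3 of PBS mice after 5-FU there were 9 and the median was 0.65. There were 2 or 3 without any 1 of replicates 1 and 2 of β-glucan and replicate 1 of PBS mice after 5-FU and replicate 2 of PBS mice at day 28. The median was 0.23 without replicate 4 of PBS mice after 5-FU and 0.21 without replicate 1 of PBS mice at day 28. The median effects were 0.62 after 5-FU and 0.48 at day 28. Cxcl12, the chemokine that holds stem cells in the marrow, had 251, 211, 207 and 215 CPM in β-glucan and 65.4, 90.0, 148 and 66.6 CPM in PBS mice after 5-FU, and 176, 175, 138 and 128 CPM in β-glucan and 116, 113, 90.2 and 90.0 CPM in PBS mice at day 28. β-Glucan libraries were above PBS libraries in both tables, with effects of 1.25 ± 0.20 (adjusted p = 0.00804) and 0.59 ± 0.19 (adjusted p = 0.138), and the difference of 0.66 ± 0.27 did not pass (adjusted p = 0.387). Col6a1, a collagen VI chain, was the 1 gene called for both effects. These were 1.31 ± 0.23 after 5-FU (adjusted p = 0.0169) and 1.13 ± 0.23 at day 28 (adjusted p = 0.0497, just under the threshold). Its difference was 0.18 ± 0.33. It averaged 6.92 and 2.77 CPM in β-glucan and PBS mice after 5-FU and 4.11 and 1.87 CPM at day 28. The list's share of counts was 0.0899 to 0.103 and 0.0509 to 0.0755% in β-glucan and PBS mice after 5-FU and 0.0801 to 0.0935 and 0.0644 to 0.0855% at day 28.

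Over all genes, 13 (0.0765%) had all β-glucan libraries above all PBS libraries after 5-FU and below them at day 28, and 12 (0.0707%) the reverse, while 58 (0.341%) were apart in the same direction in both tables. Of the 18 called genes, 8 were among these 25: Il2rb, Alox15, H2-Eb1 and Itm2a on the first side, and Lmna, Rexo1, Ighv1-49 and Gm23849 on the second. Choosing genes by the difference favours this pattern. Rasgrp3, a Ras activator of lymphocytes, and H2-Aa were on the first side without being called, at 1.11 ± 0.22 and 0.50 ± 0.10 (both adjusted p = 0.0684). Lists tied to 5-FU itself had small medians: −0.07 for 27 p53 targets, −0.13 for 20 pyrimidine and 5-fluorouracil metabolism genes, −0.08 for 35 DNA replication genes and −0.07 for 32 mitosis genes. None of their members was called for the difference by edgeR or limma voom and 1 pyrimidine gene was by DESeq2. At an unadjusted p under 0.05 there were 2, 0, 0 and 1 higher members (background 5.52%) and 2, 3, 6 and 5 lower ones (background 5.78%). Without replicate 2 of PBS mice at day 28 the lower counts of the last 3 lists were 6, 10 and 12, and over all fits without 1 library the mitosis list had 2 to 12 lower members and the p53 list 1 to 4 higher and 0 to 3 lower ones. The medians of the 4 lists were −0.22 to 0.08 in those fits. The 33 genes of the IL-1, Toll-like receptor and dectin-1 pathway had a median of 0.07 and no call by edgeR, DESeq2 or limma voom. At an unadjusted p under 0.05, 3 were higher (1 to 5 without single libraries) and 1 was lower, with the same backgrounds. The dectin-1 gene Clec7a was at 0.57 ± 0.22 (adjusted p = 0.356).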

How the data were processed

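RNA of sorted HSC was read by RNA-seq. Per the labels' protocols, RNA was extracted with RNeasy Plus Micro columns and libraries were made with the SMARTer Ultra HV kit, which does not mark strand. The authors deposited raw counts per gene, made with bcl2fastq 1.8.4 and featureCounts on mm10 per the submitters' processing notes. No aligner is named in the sources used here. Each table lists 45706 identifiers. Gene symbols were found for 45143, and those without one held 0.0574 to 0.0729% of counts.

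From these counts, genes passing filterByExpr (minimum count 10) were fitted with edgeR 4.0.16 in R 4.3.3, with TMM normalization and 1 term for each of the 4 groups. The quasi-likelihood test was applied to each β-glucan effect and to their difference, with Benjamini-Hochberg adjustment over all genes and a threshold of 0.05. SE is the size of a log2 fold change over the root of its F statistic, and CPM are on TMM-scaled totals. DESeq2 1.42.0 and limma 3.58.1 (voom with quality weights) were alternatives, with other filters, scalings, fits and each library left out. The script was tested on simulated data. The median SE of the difference was 0.16 among genes with a mean log2 CPM of at least 2. Replicates differed by more than sampling noise in all 24 pairs within groups (chi-square of 9.25 to 45.5 per gene).

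The contrast and the gene lists (30 lists with 633 entries, of which 2 had no match and 10 were below the filter) were chosen with earlier results of these data known. Named genes were up to 12 called genes of the largest difference in each direction with a mean log2 CPM of at least 2 and a standard name, the 8 next by p, up to 4 of the smallest p per list described, and genes of prior interest. Other genes were chosen after their values were seen. Shared 50-base sequences and antisense overlap were counted in the GENCODE annotation of the same genome. Promoters are from RefSeq, GRCm38.p6, and the interferon regulatory factor motif was not searched.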

Additional observations from a re-analysis of the deposited data

Results flagged for a closer look

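The 18 genes called for the difference of effects are listed here with that difference (log2, effect after 5-FU minus effect at day 28, edgeR's quasi-likelihood test of the difference itself). Among genes of lymphocytes and MHC class II it was 1.44 for Il2rb, 0.96 for Trac, 0.82 for Itm2a and 0.62 for H2-Eb1. Among eosinophil genes it was 1.36 for Alox15 and 0.83 for Ear1. It was 0.77 for Tsc22d3 and 0.59 for Ifi203. On the lower side it was −1.66 for Lipg, −1.52 for Fos, −1.40 for Prok2, −1.26 for Rexo1, −1.06 for Lmna and −2.73 for Cxcl2. The immunoglobulin segments stood at −5.89 for Ighv1-49, −7.79 for Igkv4-91 and 6.74 for Ighv5-17, and Gm23849 at −2.19.

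In 17 of 404 groups of 4 libraries looked at, 1 library stood far from the other 3 by Dixon's gap test, which by chance marks about 5 groups per 100. After 5-FU, replicate 2 of β-glucan mice was highest for Tsc22d3 (373 CPM, the others 339 to 340.0 CPM), replicate 4 for Samd14 (2.06 CPM, the others 1.81 to 1.85 CPM) and replicate 1 for Ms4a1 (50.1 CPM, the others 38.5 to 39.8 CPM). Among PBS mice after 5-FU, replicate 2 was lowest for Alox15 (8.46 CPM, the others 13.7 to 14.2 CPM) and replicate 4 for Pax5 (4.94 CPM, the others 7.24 to 7.59 CPM).

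Among β-glucan mice at day 28, replicate 3 was lowest for Elane (3595 CPM, the others 4675 to 4853 CPM), for Pim1 (121 CPM, the others 195 to 198 CPM) and for the share of counts in primary granule genes (1.24%, the others 1.43 to 1.47%). Replicate 2 of that group was lowest for Ear6 (113 CPM, the others 129 to 132 CPM) and highest for Ighv1-49 (0.843 CPM, the others 0.200 to 0.263 CPM). Replicate 1 was lowest for Slamf8 (3.15 CPM, the others 3.91 to 4.03 CPM), and replicate 4 for the share of pre-B cell genes (0.0245%, the others 0.0268 to 0.0270%). Among PBS mice at day 28, replicate 2, which also stood apart on the second principal component, was lowest for Ifi203 (23.7 CPM, the others 28.0 to 28.5 CPM). It was highest for Vps45 (24.8 CPM, the others 20.6 to 20.9 CPM), for Clec7a (49.3 CPM, the others 32.7 to 34.4 CPM) and for the share of red cell factors and membrane skeleton genes (1.92%, the others 1.34 to 1.44%). Replicate 3 was highest for Klf4 (8.05 CPM, the others 6.56 to 6.74 CPM).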

How the results depend on the processing

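The number of genes called for the difference was 18. It was 14 with DESeq2's size factors and 14 with a minimum of 5 CPM in 4 libraries, 59 with no filter, 151 with DESeq2, 118 with limma voom and 41 with all groups of the series in 1 fit, and 6 to 49 without single libraries. DESeq2 called all 18 genes and limma voom 16 of them. For the effect after 5-FU, the count of 53 became 136 with no filter, 179 with DESeq2, 97 with limma voom, 94 with all groups, 7 with only the 2 groups compared, and 19 to 107 without single libraries. For the effect at day 28, the count of 69 became 29 with DESeq2's size factors, 334 with no filter, 176 with the minimum of 5 CPM, 676 with DESeq2, 1129 with limma voom, 525 with all groups, 6 with only the 2 groups compared, and 1 to 443 without single libraries. The cause of these moves was not tested.

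Whether replicate numbers pair samples was not settled. The deviations of libraries of the same number correlated at −0.08 to −0.01 after 5-FU, and 0 of the 4 pairs were each other's best match. At day 28 they correlated at −0.14 to 0.29, and 2 of the 4 pairs were each other's best match, replicates 2 (0.29) and 3 (0.26). With a replicate block within each table, 7 genes were called for the difference (6 of the 18) and 5 for the effect at day 28.

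Of 83 named genes, 3 changed the sign of the difference under some setting, all far from the threshold. Flt3 was at 0.0017 with no filter, 0.0011 with the minimum of 5 CPM, 0.084 with limma voom and 0.084 with the replicate block, and at −0.16 to 0.19 without single libraries. Without single libraries Slamf1 was at −0.31 to 0.026 and Il1b at −0.047 to 0.52. Marker shares taken without haemoglobin counts moved with the smaller total, and the class II share, apart between groups after 5-FU as a share of all counts, then overlapped.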
